A study of Mus musculus with 18 samples.

Results

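Imprinted genes that steer growth before and around birth were followed through the first 4 weeks of the mouse heart, in its muscle cells and in the cell types around them. The set held 10 genes, Igf2, H19, Igf2r, Meg3, Dlk1, Cdkn1c, Peg3, Plagl1, Grb10 and Mest, chosen by name and matched by Ensembl identifier, of 35808 non-mitochondrial Ensembl genes in the count tables. All 10 were found. The question was how their levels moved between the stages, and whether a fall after birth was shared between cell classes.

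An imprinted gene is read mainly from 1 parental copy, because the egg and the sperm hand down different DNA methylation at a control region of its locus. Many such genes act in pairs that pull growth in opposite directions: Igf2 encodes an insulin-like growth factor that drives fetal growth through the receptor Igf1r, while Igf2r encodes the receptor that carries that ligand to the lysosome for breakdown. In rodents, Igf2 and several other growth-promoting imprinted genes are known to be switched down in many organs during the weeks after birth, as body growth slows.

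Hearts came from Myh6/Esr1-Tomato mice, in which a tamoxifen-activated Cre driven by the cardiomyocyte (CM) promoter of Myh6 switches on the red reporter TDtomato, so the label does not reach the non-muscle cells. According to the study's methods the dams received tamoxifen in the first days after delivery, so all stages share that treatment. The time since dosing grew with age, and the 2 cannot be told apart. The 18 samples were nanowell chips (ICELL8), 2 at postnatal day 4 (P4), 2 for P7, 2 for P14 and 6 for P28, all labelled wild type, and 6 P28 chips of mixed knockdown content, with hearts injected with lentivirus carrying a hairpin against the AP-1 gene Jun (shJun) or a non-targeting hairpin (shNT). P4 and P7 ventricles are taken as minced and digested with a kit, and P14 and P28 hearts as perfused. The paper's methods give these protocols for bulk RNA-seq and ChIP-seq, where the only age shared with the chips is P7. Atrial-type cells were found at P4 (below), so the P4 material may not have been ventricles alone. On this split, age and the way of digestion both changed at the step to P14 and cannot be told apart there. The well tables gave both P4 chips the same 2 animal names, and did the same at P7, so replicates of those stages are by name repeat chips of the same mice and their spread may be technical.

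After filtering, 12794 of 15993 wild-type cells and 7057 of 7482 knockdown cells were clustered and named from marker lists, with the imprinted genes held out of clustering and naming. Distinct molecules (unique molecular identifiers, UMIs) were added up over the cells of a class on a chip. Levels are CPM, UMIs of the gene in every 1000000 non-mitochondrial UMIs of the sum, and each gene is compared with itself only. The 48 wild-type sums of 20 or more cells in the 6 classes used for the levels (CM-like, Endothelial-like, Fibroblast-like, Macrophage-like, Mural-like and Endocardial-like) held 382875 to 19502604 UMIs, of samples with 11161784 to 106226097 UMIs. At P28 the CM-like sums came from replicates 1, 3 and 5 and the Endothelial-like sums from replicates 2, 4 and 6. The Fibroblast-like and Macrophage-like sums came from replicates 1, 2, 4 and 6, so classes were not always measured on the same chips. CM-like cells were 84.0, 95.6 and 95.4% of passing cells on P28 replicates 1, 3 and 5. On replicates 2, 4 and 6 they were 0.41, 0.404 and 0.398%, against 13.1 and 13.3% on the P4 chips. The cell content of the chips thus differed between P4 and P28 together with age, and the 2 cannot be told apart. CM-like cells at P7 gave a single sum of 23 cells. Of 5051 cell barcodes, 4890 occurred in several samples, because every chip uses the same set of well barcodes. In 60 wells without a cell, all genes together gave 11426 UMIs, of which 4 were Igf2, 3 H19, 2 Grb10 and 1 Meg3, and the other members had 0. Other differences between the stages moved together with the members. The share of cells with a UMI of a cell-cycle gene was 57.7 to 92.6% per sum at P4 and P7. At P14 and P28 it was 8.28 to 58.5%. Such cells are called cycling cells in the last section, but 1 UMI was enough, so the share also follows depth. Among P28 CM-like sums it was 55.2% at a median of 34620 UMIs a cell and 14.6% at 5271. Changes with those cells left out are given beside the results, and the part of depth in them was not tested. The female-specific RNA Xist lay at 102 to 477 CPM in the P4 sums of all 6 classes and at most 7.32 at P7. Sex therefore differed between those stages as well. P14 and P28 were mixed: Fibroblast-like sums had 124 and 0 at P14 and 0, 0, 213 and 183 at P28. Sex thus also differed between P4 and part of the P28 chips, and its part in any contrast was not tested. At P4, 203 of the 312 CM-like cells fell in a cluster led by the atrial genes Sln and Myl7, with Myl7 at 9918 and 12645 CPM in the CM-like sums, against 0 to 91.7 in the CM-like sums of P14 and P28, so the share of atrial-type cells in the class differed between the stages.

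The members lie on 6 chromosomes, in clusters or as single loci (coordinates of GRCm38 from GENCODE vM21). Igf2 spans chr7:142650766-142666816 and the noncoding H19 chr7:142575529-142578143, both on the minus strand, and Cdkn1c lies further along the same chromosome at chr7:143458339-143461050. Dlk1 (chr12:109452823-109463336) and the noncoding Meg3 (chr12:109541001-109571726) form a cluster on the plus strand of chromosome 12. The others are Peg3 (chr7:6703892-6730431), Igf2r (chr17:12682406-12769664), Plagl1 (chr10:13060504-13131694), Grb10 (chr11:11930508-12038683) and Mest (chr6:30723547-30748465). Igf2, Igf2r, Plagl1 and Mest each overlap a gene on the opposite strand (Igf2os, Airn, Gm27741 and Copg2), and since the strand setting of the counting is not given in the sources used here, reads from such partners cannot be told apart.

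Because the genes were asked whether they move together, the 250 bases before their annotated starts were searched on both strands for 3 short motifs. RefSeq (GRCm38.p6) gave 15 starts for 8 of the members, with no entry for H19 or Cdkn1c. The motif GGGGCCCC, a core bound by the zinc finger protein that Plagl1 itself encodes, stood in 1 of the 15 windows, that of Peg3, and in 0.889% of all 32851 windows. TATAAA stood in 1 of 15, that of Meg3, and in 12.4% of all windows. The GC box GGGCGG stood in 8 of 15 windows, from Grb10, Igf2, Igf2r, Mest and Plagl1, and in 32.7% of all windows. These 30-base stretches show 1 match of each motif and the GC box of the ligand and of its receptor, in the direction of transcription, with the motif in capitals:
Peg3, chr7:6730602-6730631, minus strand: gactctgcttgGGGGCCCCtaacactgact
Meg3, chr12:109540960-109540989, plus strand: ctgcgcctttaTATAAAccccacccagcca
Igf2, chr7:142657578-142657607, minus strand: aaggagggaggGGGCGGgtgcaaagggggc
Igf2r, chr17:12769719-12769748, minus strand: agcaggaggcgGGGCGGgggcgggccgact
Only 1 match is in capitals in each stretch. The Igf2r stretch also holds a GC box 25 bases before the start. The Meg3 stretch also holds TATAAA in reverse complement, 29 bases before the start and overlapping the marked match. A match is a stretch of letters, and binding was not measured here.

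Igf2 and H19, the pair of neighbouring genes that share enhancers and an imprinting control region, fell between P4 and P28 in CM-like sums and in sums of the cells around them. Igf2, the growth factor, was lower at P28 in CM-like, Endothelial-like and Fibroblast-like sums, by 5.14-, 5.52- and 11.9-fold in the group means, though in CM-like sums the call was lost with the atrial-led P4 cluster left out. H19, a noncoding RNA read from the maternal copy, was lower in all 4 classes tested, by 13.7-fold in CM-like, 17.7-fold in Endothelial-like, 54.8-fold in Fibroblast-like and 23.5-fold in Macrophage-like sums. The P28 levels of CM-like, Fibroblast-like and Macrophage-like sums were no higher than the highest in cells that should lack these genes (below). How much of them is background was not settled, so the folds there are not ranked between classes. The fall of Igf2 was not called at any single step between neighbouring stages. That of H19 was called from P7 to P14 in 3 classes, of which the Endothelial-like call was lost when endocardial cells were merged in.

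In CM-like sums Igf2 stood at 304 and 153 CPM at P4, 97.6 at P7, then 95.0 and 49.1 at P14, and 50.2, 34.5 and 48.5 at P28. Every P28 sum lay below both P4 sums, and it fell by 2.13 ± 0.45 on the log2 scale (SE, edgeR's quasi-likelihood test, Benjamini-Hochberg adjusted p = 0.0108). With the atrial-led P4 cluster left out (56 and 53 P4 cells remained) the change was -1.71 ± 0.47, which missed the threshold (edgeR adjusted p = 0.0576). In Endothelial-like sums, vessel-lining cells, it stood at 819 and 724 at P4, 574 and 509 at P7, then 239 and 187 at P14, and 164, 165 and 89.8 at P28. The order of the stages held in every sum there, and Igf2 fell by 2.33 ± 0.39 between the outer stages (edgeR adjusted p = 0.00193).

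Fibroblast-like sums began close to the endothelial ones. Their Igf2 levels were 737 and 615 CPM at P4, 443 and 496 at P7, then 146 and 124 at P14, and 26.1, 68.1, 77.0 and 55.9 at P28. No stage overlapped the next, and it fell by 3.41 ± 0.44 on the log2 scale (edgeR adjusted p = 0.000333). In Macrophage-like sums Igf2 stood at 396 and 215 at P4, 193 and 229 at P7, then 50.4 and 42.3 at P14, and 8.77, 74.8, 40.7 and 4.08 at P28. P28 lay below P4 in every sum, but the 4 P28 sums were spread widely, and the change of -3.25 ± 0.74 missed the threshold (edgeR adjusted p = 0.117).

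H19 in CM-like sums was counted at 303 and 180.4 CPM at P4, 151 at P7, then 20.01 and 1.78 at P14, and 17.7, 26.2 and 9.19 at P28, and fell by 3.47 ± 0.67 on the log2 scale (edgeR adjusted p = 0.00613). With the atrial-led P4 cluster left out H19 fell by 3.59 ± 0.71 there (edgeR adjusted p = 0.0143). In Endothelial-like sums it was 995 and 1038 at P4, 1027 and 993 at P7, then 44.1 and 11.1 at P14, and 97.4, 49.5 and 25.2 at P28. The P4 and P7 endothelial values overlapped, P14 lay far below both, and P28 overlapped P14, and over P4 to P28 it fell by 4.04 ± 0.56 (edgeR adjusted p = 0.000391). No endocardial cluster was found at P7, so endocardial cells of that stage lie in other clusters, and the endocardial markers of the Endothelial-like sums summed to 1258 and 1103 CPM at P4, 1566 and 1266 at P7, and 768 and 1477 at P14. With Endocardial-like cells merged into this class at every stage, H19 fell by 2.74 ± 0.62 from P4 to P28 (edgeR adjusted p = 0.0321) and Igf2 fell by 1.67 ± 0.38 (edgeR adjusted p = 0.0304), whereas the H19 change from P7 to P14 was -1.47 ± 0.76 (edgeR adjusted p = 0.432).

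The levels of the other 2 classes were split in the same way, with P4 and P7 above P14 and P28. Fibroblast-like sums held 1327 and 1106 CPM of H19 at P4, 1241 and 1213 at P7, then 16.5 and 70.2 at P14, and 0, 25.2, 51.1 and 12.5 at P28, and it fell by 5.50 ± 0.69 (edgeR adjusted p = 0.000319). Macrophage-like sums held 983 and 394 at P4, 723 and 718 at P7, then 18.3 and 1.76 at P14, and 4.38, 56.4, 46.1 and 10.2 at P28, and it fell by 4.49 ± 0.74 (edgeR adjusted p = 0.00531). In the Macrophage-like sums the 8 fibroblast markers summed to 1123 and 3153 CPM at P4 and 988 to 3202 at P28. The 8 CM markers summed to 13182 and 19294 at P4 and 602 to 17903 at P28. H19 fell in Fibroblast-like and CM-like sums too, so these markers cannot show what part of the Macrophage-like H19 came from such cells. That part was not tested.

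**Figure D1:**
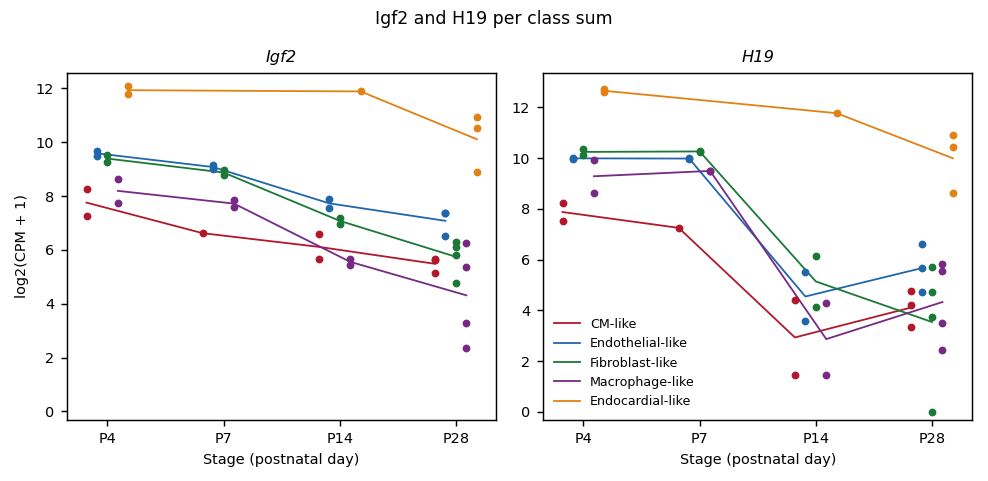
Level of Igf2 (left) and H19 (right) on the y axis, as log2(CPM + 1), by postnatal stage on the x axis. Each point is the sum of 1 class on 1 chip, lines join class means at each stage, and colours mark the 5 classes. Class means of Igf2 are lower at each later stage, H19 is lower at P14 than at P7 in the 4 tested classes, and Endocardial-like sums lie above the other classes at P4, P14 and P28, with none at P7.

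These levels were also seen cell by cell. In Fibroblast-like cells the share with an H19 UMI was 78.3 and 86.4% at P4, 77.4 and 85.0% at P7, then 15.9 and 6.67% at P14 and 0 to 30.8% at P28. With each cell thinned to 1000 UMIs, so that depth could not set the share, it was 44.8 and 50.5% at P4, 39.4 and 46.8% at P7 and 0 to 6.67% later. For Igf2 in CM-like cells the thinned share was 21.5 and 16.7% at P4, 4.35% at P7 and 2.13 to 3.14% at P14 and P28, against unthinned shares of 68.8 and 76.2% at P4 and 6.23 to 26.2% at P14 and P28. Thinned shares of a few percent are near the level of 1 UMI, and no order is read among them. T cell-like cells, which should lack the gene, were on 4 P28 chips, with 11.8 to 96.2 CPM of Igf2 and 9.77 to 60.3 CPM of H19. P28 sums of CM-like, Fibroblast-like and Macrophage-like cells had 4.08 to 77.0 CPM of Igf2 and 0 to 56.4 of H19. None was above the highest T cell-like value. On the same chip, Igf2 in Fibroblast-like and T cell-like sums was 77.0 and 42.0 in replicate 4 and 55.9 and 11.8 in replicate 6. In replicate 2 it was 68.1 and 96.2, and Macrophage-like Igf2 lay below the T cell-like value on all these chips. How much of the P28 levels is background was not settled. The P4 levels of both genes in every class lay above the T cell-like values. No T cell-like cluster was found at P4, so background there was not measured. The 60 wells without a cell had 350 CPM of Igf2 and 263 of H19, from 4 and 3 UMIs. A single Granulocyte-like sum of 22 cells reached 400.1 CPM of Igf2 at P28. A B cell-like sum of 35 cells at P28 had 116.5 CPM of H19, above the Endothelial-like sums of that stage (at most 97.4). When cells with a UMI of any cell-cycle gene were left out, the changes were -3.23 in CM-like, -2.43 in Endothelial-like and -2.82 in Fibroblast-like sums for Igf2 and -4.62, -4.27 and -5.35 for H19, and these 6 calls held. Of the other calls, Peg3 in CM-like sums held (-2.41), while Plagl1 in CM-like (-1.47), Peg3 in Fibroblast-like (-1.42) and Dlk1 in Fibroblast-like sums (-4.98) no longer passed.

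Endocardial-like cells, which line the chambers, had the highest levels of both genes at P4 and at P28. Named only from markers such as Npr3, Cytl1 and Plvap, they had Igf2 at 4328 and 3544 CPM at P4, 3796 in the single P14 sum, and 1939.8, 1479 and 473 at P28. H19 stood at 6689 and 6182 at P4, 3488 at P14, and 1374, 1943 and 394 at P28. The lowest endocardial value of each gene at P28 was above the highest value of the other 4 classes at that stage, and the P14 levels of Igf2 and H19 had not dropped to those of the other classes.

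Endocardial-like cells therefore held a share of the Igf2 and H19 molecules well above their share of cells. At P4 they were 6.46 and 7.58% of the passing cells and held 38.9 and 37.0% of the Igf2 UMIs and 38.5 and 38.6% of the H19 UMIs. On 2 of the P28 chips, replicates 2 and 4, they were 3.28 and 4.04% of cells with 36.0 and 49.4% of Igf2 UMIs and 33.2 and 64.2% of H19 UMIs. Replicate 6 at P28 stood apart: 34.8% of its cells fell in this cluster, with a median of 2108 UMIs a cell, and its summed endocardial markers reached 1198 CPM against 6607 and 4089 in replicates 2 and 4. That cluster held 73.5% of the Igf2 and 84.5% of the H19 UMIs of its chip.

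A test of these sums was added after the values had been seen. In that fit, 2 of 9 members were called lower at P28 than at P4, against 0.176% of all genes tested: H19 fell by 2.17 ± 0.55 on the log2 scale (edgeR adjusted p = 0.045) and Plagl1 fell by 3.41 ± 0.70 (edgeR adjusted p = 0.00858). Plagl1, a zinc finger factor that regulates other imprinted genes, stood at 804 and 349.7 CPM at P4, 121 at P14 and 32.8, 87.5 and 15.5 at P28 in these cells. The change of Igf2 was -1.44 ± 0.53 (edgeR adjusted p = 0.28). Without P28 replicate 6 the 3 changes were -1.74 ± 0.42 for H19 (edgeR adjusted p = 0.0358), -2.98 ± 0.67 for Plagl1 (edgeR adjusted p = 0.0212) and -1.04 ± 0.41 for Igf2 (edgeR adjusted p = 0.337). The 2 calls rested on single chips: without P4 replicate 1 0 members were called, and without P4 replicate 2 or P14 replicate 1 Plagl1 was the only one. The endocardial markers themselves were higher at P28 in replicates 2 and 4 than at P4 (2642 and 2138 CPM), and the part of this in the levels above was not tested.

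Dlk1 and Meg3, neighbours with opposite parental expression, had their highest levels in Fibroblast-like sums among the 4 classes tested. Dlk1 encodes a membrane protein that holds progenitors back from differentiating, and Meg3 is a noncoding RNA of the maternal copy. Dlk1 fell in Fibroblast-like sums by 47.4-fold in the group means, whereas no class passed the test for Meg3. In Fibroblast-like sums Dlk1 stood at 37.1 and 20.5 CPM at P4, 7.67 and 7.19 at P7, then 0.445 and 30.1 at P14, and 0, 0.691, 1.20 and 0.543 at P28, and it fell by 4.98 ± 1.20 on the log2 scale (edgeR adjusted p = 0.039), a call lost in 8 of 24 alternatives. The 30.1 of P14 replicate 2 was 18 UMIs that all came from 1 cell, and at P4 the richest cell held 17.7 and 43.7% of the class's Dlk1 UMIs. The share of Fibroblast-like cells with a Dlk1 UMI was 14.3 and 9.29% at P4 and 0 to 1.37% at P28.

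Elsewhere Dlk1 was near the detection limit. In Endothelial-like sums it was 2.80 and 5.48 CPM at P4, and no UMI was counted at P28, so that it was at least 9.08-fold lower there in the mean, against a floor of 3 counts over the group. In CM-like sums it was 2.19 and 1.90 at P4 and 0.537, 0.154 and 0 at P28, with a change of -2.82 ± 1.45 (edgeR adjusted p = 0.303). Macrophage-like sums had too few UMIs for a test.

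Meg3 kept a high level in Fibroblast-like sums through P28. It was 501 and 333 CPM at P4, 504 and 399.6 at P7, then 237 and 304 at P14, and 235, 209, 186 and 196 at P28. Every P28 sum lay below both P4 sums, but the change of -0.88 ± 0.38 did not pass (edgeR adjusted p = 0.373). In CM-like sums Meg3 was 34.4 and 22.9 at P4 and 10.3, 5.85 and 4.69 at P28 (log2 change -1.82 ± 0.69, edgeR adjusted p = 0.154). In Endothelial-like sums the P4 values of 19.3 and 32.0 and the P28 values of 15.8, 21.7 and 3.94 overlapped (-0.75 ± 0.92, edgeR adjusted p = 0.762). In Macrophage-like sums it went from 46.7 and 27.5 to 4.38, 10.7, 9.31 and 3.06 (-2.36 ± 1.06, edgeR adjusted p = 0.54). The lowest Meg3 value of the Fibroblast-like sums at any stage, 186, was above the highest of the CM-like, Endothelial-like and Macrophage-like sums, 77.0, and Mural-like sums had 177 and 219 at P4 and 337 and 233 at P7.

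Peg3, Mest and Plagl1 are read from the paternal copy: Peg3 and Plagl1 encode zinc finger proteins, and Mest a hydrolase-like enzyme of mesodermal tissue. Peg3 fell in CM-like and Fibroblast-like sums, Plagl1 in CM-like sums, and Mest passed at the step from P7 to P14 in Endothelial-like sums. In CM-like sums Peg3 was 158 and 158 CPM at P4, 147 at P7, then 22.3 and 20.3 at P14, and 26.8, 34.9 and 31.7 at P28, which put the P4 and P7 levels on one side and those of P14 and P28 on the other. It fell by 2.10 ± 0.43 on the log2 scale (edgeR adjusted p = 0.0081). In Fibroblast-like sums it was 618 and 502 at P4, 679.8 and 558 at P7, then 193 and 333 at P14, and 75.7, 206, 114 and 144 at P28, and it fell by 1.92 ± 0.41 (edgeR adjusted p = 0.0185).

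The other classes did not pass for Peg3. Endothelial-like sums had 140.1 and 198 at P4 and 89.7, 95.4 and 64.6 at P28, without overlap, and a change of -0.89 ± 0.46 (edgeR adjusted p = 0.365) that became 0.32 with cells holding a cell-cycle UMI left out. Macrophage-like sums had 173 and 29.9 at P4 and 0, 13.2, 15.8 and 14.3 at P28 (-3.02 ± 0.89, edgeR adjusted p = 0.292).

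Mest was highest in Endothelial-like sums at P4 and P7 and low at P14. It stood there at 126 and 135 CPM at P4, 113 and 131 at P7, then 6.68 and 1.11 at P14, and 72.6, 5.17 and 11.03 at P28. From P7 to P14 it fell by 4.10 ± 1.004 on the log2 scale (edgeR adjusted p = 0.0488), and the change over P4 to P28 was -2.08 ± 0.79 (edgeR adjusted p = 0.19). At P28, replicate 2 was well above the other 2, with 161 UMIs in 15 of 154 cells and 37.9% of them in 1 cell. In Fibroblast-like sums Mest was 68.1 and 66.5 at P4 and 18.3, 3.11, 4.13 and 0.543 at P28 (-3.62 ± 0.99, edgeR adjusted p = 0.0759). CM-like sums had 19.7 and 34.2 at P4 and 8.05, 1.28 and 1.37 at P28 (-2.82 ± 0.82, edgeR adjusted p = 0.0587), while in Macrophage-like sums it was 2.28 and 26.2 and then 0 to 0.994 (-4.82 ± 1.45, edgeR adjusted p = 0.323).

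Plagl1 had P28 sums below both P4 sums in all 4 classes, and 1 of the 4 changes passed. In CM-like sums it stood at 47.4 and 64.8 CPM at P4, 17.1 at P7, then 9.89 and 4.62 at P14, and 9.02, 12.3 and 3.52 at P28, and it fell by 2.49 ± 0.63 (edgeR adjusted p = 0.0308), a call that was lost in 8 of 24 alternatives. The share of CM-like cells with a Plagl1 UMI was 24.3 and 35.1% at P4 and 1.67 to 5.89% at P28. Endothelial-like sums kept 91.3 and 85.1 at P7, after 64.1 and 75.5 at P4, and had 7.96 and 1.11 at P14 and 3.16, 21.7 and 0.788 at P28 (P28 against P4, -2.79 ± 0.92, edgeR adjusted p = 0.125). The changes were -3.06 ± 0.87 in Fibroblast-like sums (edgeR adjusted p = 0.0927), from 59.2 and 55.2 to between 0 and 12.2, and -4.03 ± 1.14 in Macrophage-like sums (edgeR adjusted p = 0.276), from 60.4 and 37.8 to between 1.02 and 6.57.

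**Figure D2:**
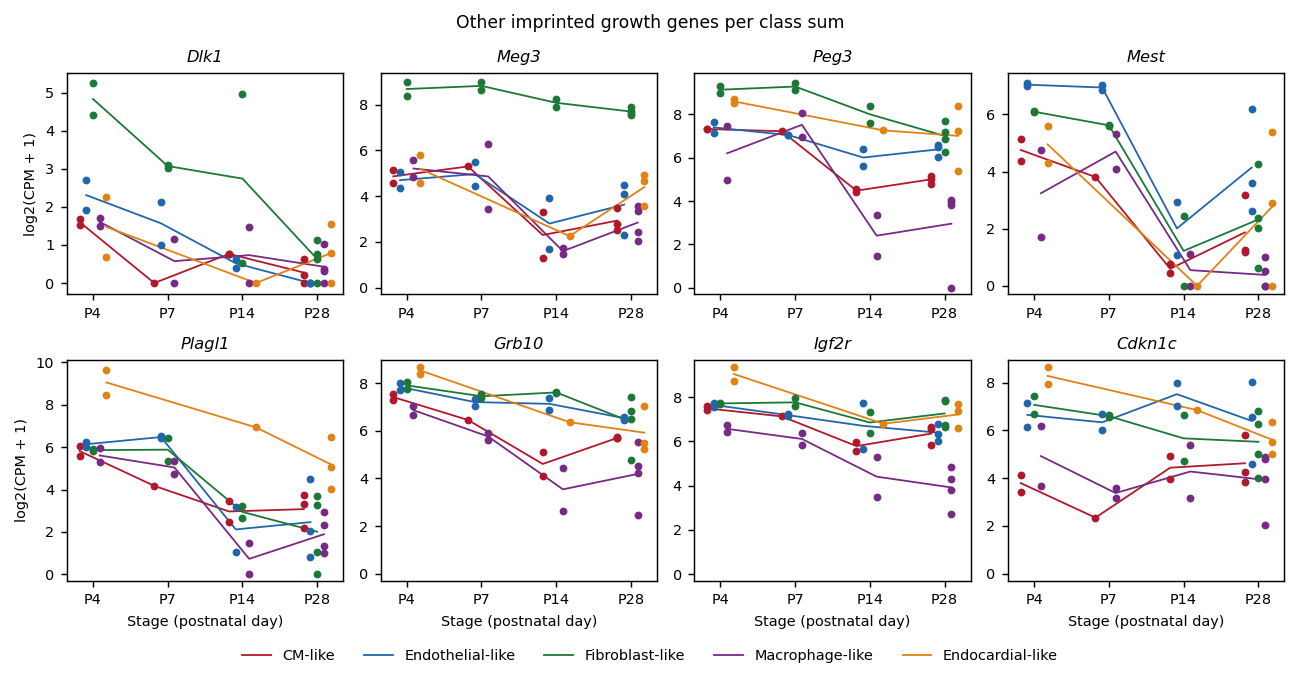
Level of the 8 other genes on the y axes, as log2(CPM + 1), by postnatal stage on the x axes. Each point is 1 class on 1 chip and lines join class means at each stage. Fibroblast-like sums carry the most Meg3 at every stage, Mest is lower in both Endothelial-like sums of P14 than in those of P7, and the sums of Cdkn1c overlap between P4 and P28 in the 4 tested classes.

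The members that restrain growth come next. Grb10 encodes an adaptor that damps insulin and IGF receptor signalling, Igf2r the receptor that clears the Igf2 ligand, and Cdkn1c an inhibitor of cyclin-dependent kinases that stops the cell cycle. None of the 3 passed the test of P28 against P4 in any of the 4 classes. For Grb10, CM-like sums had 156 and 186 CPM at P4, 87.0 at P7, then 34.0 and 16.0 at P14 and 52.0, 51.2 and 50.7 at P28 (-1.52 ± 0.45, edgeR adjusted p = 0.0637). With the atrial-led P4 cluster left out the CM-like change was -1.87 ± 0.47 and passed (edgeR adjusted p = 0.0408). Endothelial-like sums had 207 and 255 at P4 and 86.5, 93.1 and 96.1 at P28 (-1.19 ± 0.42, edgeR adjusted p = 0.15), and -1.78 ± 0.40 with endocardial cells merged in (edgeR adjusted p = 0.0291). The P28 groups did not overlap P4 in either class. Fibroblast-like sums changed by -1.14 ± 0.52 (edgeR adjusted p = 0.417), from 219 and 264 to 26.1, 173, 89.2 and 112, and Macrophage-like sums by -2.40 ± 0.84 (edgeR adjusted p = 0.403), from 132 and 102 to between 4.60 and 45.7.

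Igf2r in Fibroblast-like sums stood at 214 and 204 CPM at P4, 246 and 190.1 at P7, then 160.3 and 81.9 at P14, and 232, 224, 106 and 98.8 at P28. The P4 and P28 sums overlapped (-0.25 ± 0.49, edgeR adjusted p = 0.953). In CM-like sums it was 190.4 and 168 at P4 and 94.2, 56.2 and 99.0 at P28 (-0.91 ± 0.40, edgeR adjusted p = 0.225), and in Endothelial-like sums 215 and 185 and then 111, 80.8 and 63.8 (-1.11 ± 0.46, edgeR adjusted p = 0.231). Macrophage-like sums went from 84.3 and 104 to between 5.62 and 27.3 (-2.54 ± 0.80, edgeR adjusted p = 0.349).

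Cdkn1c was the only member whose P4 and P28 sums overlapped in all 4 classes. CM-like sums had 16.7 and 9.80 CPM at P4, 4.07 at P7, then 28.98 and 14.6 at P14 and 54.5, 17.9 and 13.1 at P28 (log2 change 1.29 ± 0.65, edgeR adjusted p = 0.297). Endothelial-like sums ranged from 69.7 to 141 at P4 and from 22.9 to 260.1 at P28 (0.34 ± 0.63, edgeR adjusted p = 0.859). The change was -1.15 ± 0.67 in Fibroblast-like sums (edgeR adjusted p = 0.613) and -1.17 ± 1.08 in Macrophage-like sums (edgeR adjusted p = 0.803). Its sign in CM-like, Endothelial-like and Macrophage-like sums turned with the processing. In Endocardial-like sums Cdkn1c stood at 241 and 396 CPM at P4, 114 at P14, and 30.9, 80.1 and 44.0 at P28. P28 lay below P4 there, and in the endocardial fit the change was -2.34 ± 0.68 (edgeR adjusted p = 0.111). Grb10 and Igf2r changed by -2.29 ± 0.67 and -1.58 ± 0.60 in that fit (edgeR adjusted p = 0.11 and 0.298).

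Counted over the set, P28 was called lower than P4 for 4 of 10 members in CM-like sums (Igf2, H19, Peg3 and Plagl1), where 1.73% of all genes tested were called lower. In Endothelial-like sums it was 2 of 10 (Igf2 and H19), against 1.51% of all genes. In Fibroblast-like sums it was 4 of 10 (Igf2, H19, Dlk1 and Peg3), against 0.966%, and in Macrophage-like sums 1 of 9 (H19), against 0.0983%. No member was called higher. In either direction 4.28, 2.88, 1.61 and 0.17% of genes were called in the 4 classes in that order. At an unadjusted p below 0.05 the counts were 8, 7, 8 and 8 members. The share of all genes at that p was not counted, so nothing is read from these counts. H19 was the only member called in all 4 classes. When each cell was named by itself instead of by its cluster, 0 members were called in CM-like, 0 in Endothelial-like and 7 in Fibroblast-like sums. With the atrial-led P4 cluster left out, 4 were still called in CM-like sums, Grb10 in place of Igf2.

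Every P28 sum was below every P4 sum for 9 of 10 members in CM-like sums (24.3% of all genes tested), 8 of 10 in Endothelial-like sums (19%), 8 of 10 in Fibroblast-like sums (15.9%) and 8 of 9 in Macrophage-like sums (10.7%). The median log2 change of the members was -2.11, -1.64, -2.49 and -3.02 in these classes, where the median over all genes tested was 0.01, 0.02, -0.01 and 0.01. The calls rested on the 2 P4 chips. Without P4 replicate 1, 0 members were called in CM-like and in Macrophage-like sums and 2 (Igf2 and H19) in Fibroblast-like sums, and without P4 replicate 2 the CM-like count was 2 (Igf2 and H19) and the Fibroblast-like count 2.

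**Figure D3:**
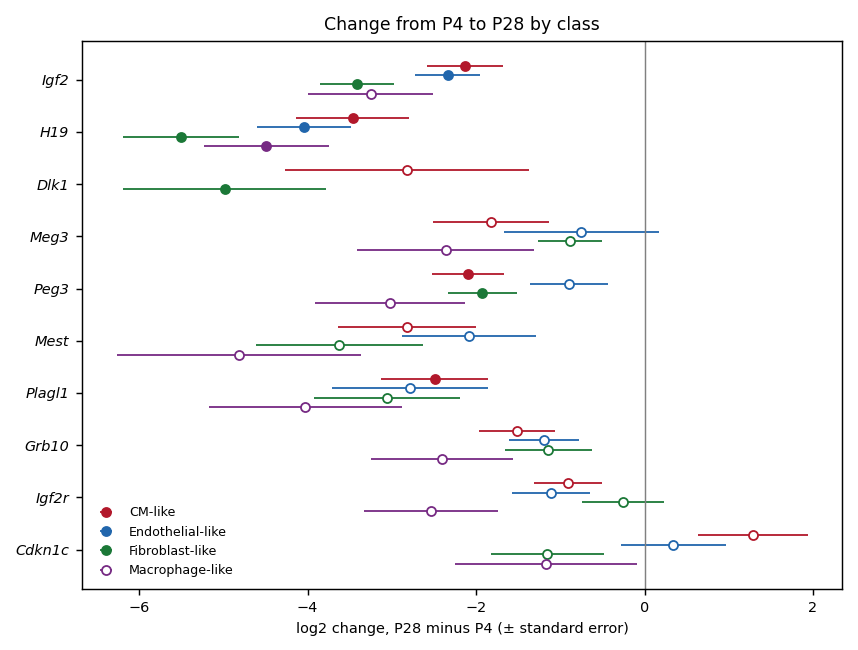
Log2 change from P4 to P28 on the x axis for each member in the 4 classes, with bars of ± 1 standard error and filled points where the adjusted p was below 0.05. Points lie left of the line at 0 except for Cdkn1c in CM-like and Endothelial-like sums. Dlk1 is shown where it was tested and not at 0 UMIs at P28.

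Whether the classes fell by different amounts was tested directly in 1 joint fit of 37 sums. The changes differed between the 4 classes for 0 of 10 members, where 0.0414% of all genes tested were called, and 0 members had an unadjusted p below 0.05. DESeq2 called 0 members and 278 of all 19341 genes, with 1 member at an unadjusted p below 0.05. With the chip as a term edgeR called 0 members and 42 of all genes, with 4 members below 0.05. The share of all genes at that p was not counted. The errors were wide. Compared with Fibroblast-like sums, the log2 change of Igf2 was 1.30 ± 0.88 less negative in CM-like, 1.09 ± 0.88 in Endothelial-like and 0.33 ± 0.86 in Macrophage-like sums (edgeR adjusted p = 0.891 over the 3 together). For H19 these differences were 2.04 ± 1.20, 1.46 ± 1.20 and 1.15 ± 1.17 (edgeR adjusted p = 0.874). With errors of this size even large differences between classes could go uncalled, so the count of 0 does not show that the fall was shared, and whether the classes fell alike was not settled by this test.

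Among the differences from Fibroblast-like sums the smallest p belonged to Igf2r in Macrophage-like sums, at -2.13 ± 0.77 (unadjusted p = 0.00876, edgeR adjusted p = 0.355), and the next to Cdkn1c in CM-like sums, at 2.46 ± 1.18 (unadjusted p = 0.0436, edgeR adjusted p = 0.814). With Endocardial-like sums added as a class after their values had been seen, 0 members were called. The smallest p belonged to Cdkn1c, whose change was more negative there than in CM-like sums, at -3.74 ± 1.22 (unadjusted p = 0.00374, edgeR adjusted p = 0.361). Against Endothelial-like sums it was -2.82 ± 1.20 (edgeR adjusted p = 0.595). The H19 change in Endocardial-like sums was 3.23 ± 1.19 less negative than in Fibroblast-like sums (unadjusted p = 0.00972, edgeR adjusted p = 0.559), and that of Igf2 1.89 ± 0.86 less negative (unadjusted p = 0.033, edgeR adjusted p = 0.623). Without P28 replicate 6 these were 3.62 ± 1.21 and 2.25 ± 0.86 (edgeR adjusted p = 0.558 and 0.611).

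Between neighbouring stages, no member was called from P4 to P7. Of the 39 member-by-class tests 0 passed, where edgeR called 0.0511% of all gene-by-class tests, and 0 had an unadjusted p below 0.05. DESeq2 called 0 of the member tests and 489 of all 56803 tests. From P7 to P14, 4 of 39 passed, all lower, against 1.03% of all tests, and 17 had an unadjusted p below 0.05, among them Cdkn1c with higher values at P14 in CM-like (3.28 ± 1.11) and Endothelial-like sums (1.72 ± 0.70). The 4 were H19 in Endothelial-like sums (-4.44 ± 0.67, edgeR adjusted p = 0.00187), in Fibroblast-like sums (-4.64 ± 0.90, edgeR adjusted p = 0.0206) and in Macrophage-like sums (-5.58 ± 1.07, edgeR adjusted p = 0.0237), and Mest in Endothelial-like sums. The count was 1 without P7 replicate 1, P7 replicate 2 or P14 replicate 2, and 2 with sums per animal. DESeq2 called 9, of which 8 were lower and 1, Cdkn1c in CM-like sums, was higher. Its calls over all 56803 tests numbered 3469, many more than those of edgeR. H19 in CM-like sums changed by -2.86 ± 0.87 at this step (edgeR adjusted p = 0.0886). From P14 to P28, 0 of 39 passed, against 0.303% of all tests, and 9 had an unadjusted p below 0.05. DESeq2 called 2 (Dlk1 and Igf2 in Fibroblast-like sums), and 1251 of all 56803 tests. The share of all tests at an unadjusted p below 0.05 was not counted, so nothing is read from the counts of 17 and 9.

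For Igf2 no single step passed the test. In Fibroblast-like sums it changed by -0.40 ± 0.51 from P4 to P7, -1.44 ± 0.53 from P7 to P14 and -1.58 ± 0.44 from P14 to P28 (edgeR adjusted p = 1, 0.225 and 0.218). H19 in the same sums changed by 0.14 ± 0.76, -4.64 ± 0.90 and -1.004 ± 0.68. In Endothelial-like sums Igf2 changed by -0.40 ± 0.42, -0.74 ± 0.43 and -1.19 ± 0.38, and H19 by 0.10 ± 0.58, -4.44 ± 0.67 and 0.30 ± 0.55. The step from P7 to P14 is the one at which the digestion is taken to have changed. From P14 to P28 the digestion is taken as the same. There Igf2 had an unadjusted edgeR p of 0.00183 in Fibroblast-like and 0.00575 in Endothelial-like sums. Neither change passed (edgeR adjusted p = 0.218 and 0.169). Whether the 2 genes differ in their timing was not tested.

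**Figure D4:**
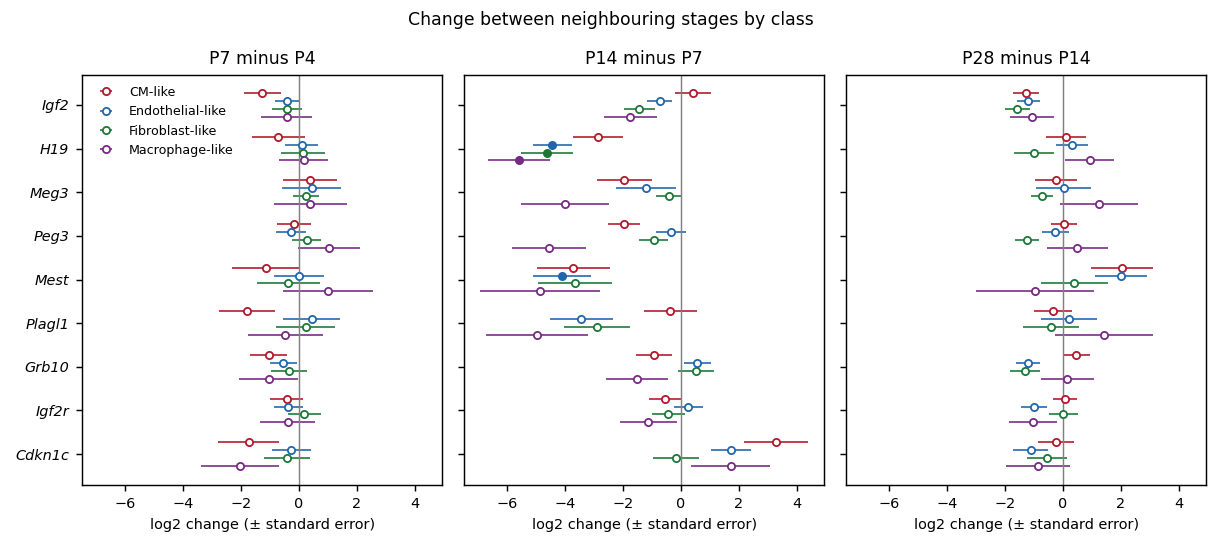
Log2 change between neighbouring stages on the x axes (P7 minus P4, P14 minus P7, P28 minus P14) for 9 members in the 4 classes, with bars of ± 1 standard error and filled points where the adjusted p was below 0.05. The filled points are H19 in 3 classes and Mest in 1, all at P14 minus P7.

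The knockdown animals gave further adult hearts, 2 animals per hairpin, assigned from the well tables of the mixed chips. Jun itself was 53.7 and 60.5 CPM in CM-like sums of the shNT animals and 25.7 and 30.1 in those of the animals labelled shJun. In Fibroblast-like sums it went the other way, with 68.2 and 122.8 against 188 and 195, so the labels could be checked in CM-like sums only. Members were called in 0 of 35 tests of shJun against shNT, with 0 of 58523 gene-by-class tests called (0.0%). DESeq2 called 0 members and 642 gene-by-class tests. With 2 animals per hairpin and 2 residual degrees of freedom the test had little power, least outside CM-like sums, so a count of 0 does not show that the members were unchanged. Of the members, 2 had an unadjusted p below 0.05, Mest in Fibroblast-like sums (-4.43 ± 1.72) and Meg3 in Macrophage-like sums (-3.94 ± 1.498). The share of all tests at that p was not counted.

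Levels in these adult animals were also below those of the P4 pups. Igf2 stood at 6.22 and 20.2 CPM with shNT and 17.4 and 20.2 with shJun in CM-like sums, and at 243 and 94.2 against 245 and 378 in Endothelial-like sums. In Fibroblast-like sums it was 65.4 and 37.4 against 129 and 58.9. H19 was 13.5 and 19.03 against 15.7 and 29.3 in CM-like and 36.5 and 31.7 against 30.1 and 105 in Fibroblast-like sums. All of these lay below the P4 values of the same class. Endocardial-like sums again held the highest values, but 1 animal had much lower ones. Igf2 was 2037 and 230.3 in the 2 shNT animals and 1944 in 1 shJun animal, and H19 was 2355, 227 and 1581. The low values belonged to shNT animal 2, whose cluster was led by globin genes and had endocardial markers at 1124 CPM. Its Igf2 was still above the 94.2 of its own Endothelial-like sum. The 2 low values lay below the highest Endothelial-like Igf2, from a shJun animal (378), and the highest Mural-like H19, from an shNT animal (305).

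Other imprinted genes came from a list of 41, of which 38 were in the tables. At P28 against P4, 0 of 26 tested were called in CM-like, 1 of 22 in Endothelial-like, 0 of 29 in Fibroblast-like and 0 of 16 in Macrophage-like sums, with median log2 changes of -0.28, -0.61, -0.52 and -0.44. These counts are set beside the 4.28, 2.88, 1.61 and 0.17% of all genes called, and nothing is read from them. The 1 called was Ppp1r9a, which encodes an actin-binding scaffold protein: it fell by 2.56 ± 0.68 in Endothelial-like sums (edgeR adjusted p = 0.0477), from 75.9 and 116 CPM to between 2.36 and 25.7.

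Of 17 further genes of the IGF pathway, 15, 12, 14 and 8 could be tested in the 4 classes. In CM-like sums, where 2.55% of all genes were called higher, 2 rose and 0 fell, both binding proteins of the IGF ligands: Igfbp7 rose by 3.23 ± 0.63 (edgeR adjusted p = 0.00656), from 7.25 and 22.2 CPM at P4 to between 76.0 and 232 at P28, and Igfbp3 by 2.86 ± 0.72 (edgeR adjusted p = 0.0296), from 2.53 and 3.48 to between 13.8 and 24.6. The summed endothelial markers in the CM-like sums were 623 and 662 CPM at P4 and 1470 to 4261 at P28, and their part in this was not tested. In Fibroblast-like sums, where 0.64% of all genes were called higher and 0.966% lower, Igfbp6, a binding protein with a preference for the Igf2 ligand, rose by 3.27 ± 0.65 (edgeR adjusted p = 0.0116), from 18.1 and 78.7 to between 204 and 627. Igf2bp3, a fetal RNA-binding protein that attaches to Igf2 mRNA, fell by 5.95 ± 1.33 (edgeR adjusted p = 0.0254), from 10.7 and 28.5 to between 0 and 0.544. In Endothelial-like and Macrophage-like sums 0 were called.

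The genes whose levels followed each member most closely over 57 sums of all named classes on the wild-type chips were ranked by Pearson's r of log2(CPM + 1), among 11899 genes in no list. These sums share chips and digestions, so r is a description. Closest to Igf2 were Hmcn1, an extracellular matrix protein (r = 0.85), Tspan6 (0.80) and Cemip2 (0.77). Hmcn1 was among the leading genes of the Endocardial-like clusters at P14 and P28, and Cemip2 among those at P4 and P14. The part of that class, which had the highest Igf2 and H19, in these r values was not tested. Closest to H19 were Hmcn1 (0.80), Nrk (0.79) and Csrp1 (0.78), and closest to Plagl1 were Hmcn1 (0.77), Nrk (0.72) and Clca3a1 (0.70). Within the set, Plagl1 and H19 reached 0.86, H19 and Igf2 0.85, and Plagl1 and Igf2 0.82.

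Meg3 was closest to Gpc3 (0.83), Itih5 (0.81) and Igsf10 (0.81), and Dlk1 to the collagen gene Col11a1 (0.76), Ptn (0.71) and Tbx18 (0.69). Cdkn1c was closest to Dock6 (0.71), Sema6a (0.70) and Tek (0.67), the last a receptor of endothelial cells. Nedd4, a ubiquitin ligase, was among the 3 closest to Igf2r (0.83), Peg3 (0.82) and Mest (0.74). Peg3 and Igf2r also shared Nfia (0.83 and 0.82), and Grb10 was closest to Nfib (0.78), Ttc3 (0.78) and Afap1 (0.77).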

How the data were processed

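Single-cell RNA-seq was measured in 18 samples of mouse heart. The authors deposited unnormalized UMI counts for each gene in each well, with a report on each well. Their processing notes name STAR 2.5.2b, featureCounts, Subread 1.4.6-p1 and mm10, and the strand setting is not given in the sources used here. Cells needed 500 genes and a log10 UMI count within 2 SD of their group's mean. Cells were clustered per stage and per knockdown animal (Python 3.11.15, scikit-learn 1.9.0, leidenalg 0.10.2, resolution 0.8 and 1) and clusters were named from markers of 11 cell types. No doublet caller was run, because wells were imaged to leave out aggregates. UMIs were summed per class and sample (at least 20 cells, per animal for the knockdown) and compared by the quasi-likelihood test of edgeR 4.0.16 (R 4.3.3, TMM scaling, filterByExpr, Benjamini-Hochberg over all genes tested, threshold 0.05). Printed levels carry no TMM scaling, and standard errors come from the log2 change and its F statistic. Residual degrees of freedom were 4 to 6 per class, 21 in the joint fit and 2 per knockdown fit. DESeq2 1.42.0, other filters, scalings, sums and classes and each sample left out were alternatives, and the scripts were tested on simulated data. Named genes were all members, the called genes of 2 lists and the 3 closest genes per member with a mean of at least 5 CPM. The members and lists were chosen with earlier results of these data known.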

Additional observations from a re-analysis of the deposited data

Results flagged for a closer look

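Of 20 groups of 4 sums, 1 held a sum that stood apart from the others in its group, where chance alone gives about 1 in 20. Peg3 was counted at 0.0 CPM in the Macrophage-like sum of P28 replicate 1, against 13.2, 15.8 and 14.3 in replicates 2, 4 and 6. That sum held 41 cells and 456358 UMIs, the fewest of the 4, and its summed CM markers were 17903 CPM against 602 to 1480 in the other 3.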

How the results depend on the processing

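Of 888 recomputed P28 against P4 changes of single members (38 results), 807 kept their direction and their side of the threshold, 40 passed only under the alternative, 32 were lost and 9 changed sign. No paired analysis was possible because each chip holds 1 stage and GEO's labels give no numbers that pair chips of different stages, and the chip entered as a term only in the joint fit of the classes. Counts of members called lower (4, 2, 4 and 1 in CM-like, Endothelial-like, Fibroblast-like and Macrophage-like sums) became 4 in Macrophage-like sums with DESeq2; 4 in Endothelial-like and 2 in Macrophage-like sums with no filter beyond 1 UMI; 2 in CM-like sums with at least 10 cells per sum; 2 in Macrophage-like sums with cells thinned to 5000 UMIs; and 0, 0 and 7 in CM-like, Endothelial-like and Fibroblast-like sums when each cell was named by itself. Calls at P14 against P7 (4) became 9 with DESeq2, 7 with no filter, 2 with sums per animal and 1 with cells named singly, and calls at P28 against P14 (0) became 2 with DESeq2. Leaving out 1 sample gave 0 to 7 members in CM-like, 2 to 3 in Endothelial-like, 2 to 5 in Fibroblast-like, 0 to 2 in Macrophage-like and 0 to 3 in Endocardial-like sums, 0 to 0 at P7 against P4, 1 to 4 at P14 against P7, 0 to 1 at P28 against P14, 0 to 0 for the knockdown and 0 to 0 for differences between classes. The CM-like 7 came without P14 replicate 2, and the Endocardial-like 0 without P4 replicate 1 (1 without P4 replicate 2 or P14 replicate 1). Without P28 replicate 4, 2 members were called in Fibroblast-like sums.

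Sign changes were Cdkn1c in CM-like sums (1.29 to -0.56 with cells named singly and -0.25 with cycling cells left out), Meg3 in Endothelial-like sums (-0.75 to 0.70 and 0.56 under the same 2), Peg3 in Endothelial-like sums (-0.89 to 0.32 with cycling cells left out), Cdkn1c in Endothelial-like sums (0.34 to -0.41 with endocardial cells merged in, -0.62 without P28 replicate 2, -0.08 without P4 replicate 2, and up to 0.82 with another sample left out) and Cdkn1c in Macrophage-like sums (-1.17 to 0.63 without P4 replicate 1 and down to -1.93 with another sample left out). The cause was not tested. Over all genes, 676, 409, 251 and 19 were called at P28 against P4 in the 4 classes, 1318, 1007, 690 and 168 with DESeq2, 1125, 705, 497 and 127 with no filter, 310, 245, 251 and 19 with at least 10 cells, 1130, 283, 263 and 42 with sums per animal, 1172, 258, 188 and 18 with only the stages compared, 404, 490, 407 and 37 with thinned cells, and 447, 289, 225 and 17 with at least 1000 genes per cell. With cells named singly they were 49, 76 and 573, and with cycling cells left out 333, 107 and 114, where Macrophage-like sums had too few P4 cells for a value. Merging endocardial cells gave 188 in Endothelial-like sums, and leaving out the atrial-led P4 cluster gave 458 in CM-like sums, where the Igf2 call was lost. Without P4 replicate 1 they were 117, 154, 45 and 21, and without P4 replicate 2 they were 153, 130, 51 and 11. The 3 alternatives on endocardial cells and that on the atrial-led cluster were chosen after seeing the data.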
